A study of Mus musculus with 41 samples.

Results

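The receptor tyrosine kinase gene Met was followed together with 9 genes that lie around it on mouse chromosome 6: Foxp2, Mdfic, Tfec, Tes, Cav2 and Cav1 on the lower-coordinate side, and Capza2, St7 and Cttnbp2 on the other. These 10 genes, of 47480 in the expression matrix, were chosen by symbol and position because several of them had high values in the same tumors as Met. Their tumor-by-tumor values therefore chose them and are given as a description without a test. The same values enter the later comparison of genotypes, so its p-values for these genes are no independent evidence. The matrix holds bulk RNA-seq of 41 untreated mammary tumors of Balb/c mice, 28 from the double-null genotype (Plk2-/-; p53-/-, tumors named PLK2null with their number) and 13 from the single-null genotype (p53-/-, tumors named p53null), so that every tumor lacks p53 and no tumor with intact p53 was included. According to the labels the tumors were grown by orthotopic injection into hosts of the same strain, so that host stroma is part of each bulk sample. The labels give no age and do not say which tumors descend from one another.

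MET is the receptor of hepatocyte growth factor (HGF), a ligand made by stromal cells; on binding, the receptor signals through the adaptor GAB1 to the RAS-MAPK and PI3K pathways and drives motility and branching of epithelial cells, the mammary gland included. Several of its neighbors act at the membrane and the actin cytoskeleton. Caveolins 1 and 2 (Cav1, Cav2) form the coat of caveolae and are abundant in endothelial cells and adipocytes, testin (Tes) is a LIM-domain protein of focal adhesions, and Capza2 encodes an alpha subunit of the actin capping protein. Cttnbp2 encodes a cortactin-binding protein, Mdfic an inhibitor of transcription factors, Tfec a transcription factor of the MiT family known from macrophages, and Foxp2 a forkhead transcription factor. St7 encodes a membrane protein first studied as a candidate tumor suppressor.

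In the mouse genome build GRCm38 (mm10) with the GENCODE vM21 annotation, Met spans chr6:17463800-17573980 on the plus strand. On the lower side follow Cav1 (chr6:17306335-17341452, plus), Cav2 (chr6:17281185-17289115, plus), Tes (chr6:17065149-17105828, plus), Tfec (chr6:16833373-16898441, minus), Mdfic (chr6:15720661-15802169, plus) and Foxp2 (chr6:14901349-15441977, plus). On the upper side follow Capza2 (chr6:17636234-17666972, plus), St7 (chr6:17692933-17943025, plus) and Cttnbp2 (chr6:18366478-18514843, minus). The gap between Cav1 and Met is 122.3 kb, and that between Met and Capza2 is 62.3 kb. Cav2 and Cav1 are only 17.2 kb apart. Gm4876 overlaps Tes on the other strand, Gm15581 overlaps Cav2 and Cav1, 4 genes overlap St7 and 1 overlaps Cttnbp2, and because it is not given whether reads were assigned by strand, their reads cannot be told apart from those of the named genes.

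The promoters of the genes nearest to Met on its lower side are shown because these genes, although close together, did not have the same pattern across tumors. The sequences run 5′ to 3′ on the plus strand of GRCm38.p6 and come from RefSeq, which had an entry for 9 of the 10 genes (not Foxp2). The bases directly upstream of the annotated gene start are given, 250 for Tes, Cav2 and Cav1 and 93 for Met, with every GGGCGG (a GC box) or its reverse complement CCGCCC in capitals.
Tes, chr6:17064899-17065148: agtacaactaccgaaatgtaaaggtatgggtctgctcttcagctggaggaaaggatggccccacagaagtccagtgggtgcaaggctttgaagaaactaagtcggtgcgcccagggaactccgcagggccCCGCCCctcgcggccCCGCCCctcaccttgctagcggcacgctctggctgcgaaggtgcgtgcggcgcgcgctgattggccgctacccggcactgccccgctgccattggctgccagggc
Cav2, chr6:17280935-17281184: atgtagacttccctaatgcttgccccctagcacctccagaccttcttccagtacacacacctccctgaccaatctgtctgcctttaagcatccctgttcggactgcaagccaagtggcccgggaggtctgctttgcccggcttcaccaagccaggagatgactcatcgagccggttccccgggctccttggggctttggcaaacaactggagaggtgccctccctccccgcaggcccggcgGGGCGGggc
Cav1, chr6:17306085-17306334: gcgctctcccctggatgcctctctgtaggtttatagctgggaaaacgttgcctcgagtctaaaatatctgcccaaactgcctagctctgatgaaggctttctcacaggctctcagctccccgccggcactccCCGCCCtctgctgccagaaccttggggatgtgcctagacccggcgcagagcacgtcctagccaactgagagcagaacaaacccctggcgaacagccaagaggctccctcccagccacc
Met, chr6:17463707-17463799: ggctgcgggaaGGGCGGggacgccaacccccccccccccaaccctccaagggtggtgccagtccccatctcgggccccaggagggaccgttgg
GGGCGG in either orientation is found 2 times in the printed Tes sequence and 1 time each in those of Cav2, Cav1 and Met. In the 250 bases before the RefSeq start, which for Met reach beyond the bases printed, it is found 3 times for Met, 2 times for Tes and 1 time each for Cav2 and Cav1, compared with 32.7% of 32851 RefSeq promoters that hold it at least once in a window of this length. A second RefSeq promoter entry of Cav1 holds it 0 times. Whether the motif has a part in which genes were raised with Met was not tested.

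Values are upper-quartile normalized estimated counts, with 29409609 to 70868123 assigned fragments per tumor in the p53null group and 31910251 to 53244728 in the PLK2null group. One fragment was worth 0.388 to 0.817 normalized counts, and the limit that a count of 0 allows (3 fragments) was 1.16 to 2.45. A gene was called raised in a tumor when its log2(value + 1) was at least 1 (2-fold) above its median over the 13 p53null tumors. The tissue label was checked with 5 epithelial markers (Epcam, Krt8, Krt18, Cdh1 and Krt14). Their summed value was 33634 to 273640 in 37 tumors, but 40.1 in PLK2null-743, 52.7 in PLK2null-733, 259 in PLK2null-732 and 13046 in PLK2null-7763. These 4 tumors stood apart, since the sum of 6 endothelial markers was 78025 to 186496 in them and 2041 to 16463 in the others, and each of the 6 was higher in all 4 than in any other tumor. The sum of 5 adipocyte markers was also higher in them (51831 to 124694 against 226 to 3392), but nearly all of it was Fabp4 (51564 to 124638), which endothelial cells also express. The defining adipocyte markers Adipoq (3.58 to 84.4) and Plin1 (15.6 to 42.8) lay within the range of the other tumors. The calls between genotypes, and the differences of Met and Tfec, are therefore also given without these 4 tumors. The study classes its line CL743, which shares its number with PLK2null-743, as claudin-low.

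Met itself was raised in 20 of 41 tumors, 19 of them PLK2null and 1 p53null. In the 20 tumors Met was at 14842 in the lowest (PLK2null-1967), at a median of 108236 and at 203935 in the highest (PLK2null-1988). In the other 21 tumors it lay between 144 (p53null-5317) and 3849 (p53null-5329), with a median of 1061. The ranges do not overlap, as the definition fixes, and the values next to the threshold were far apart on the log2 scale, 2.71 above the p53null median for PLK2null-1967 and 0.76 above it for p53null-5329. Met took 0.0589% to 0.798% of all reads in the 20 tumors and the 10 genes together 0.332% to 3.28%, whereas the 10 genes took 0.0294% to 0.209% in the other 21.

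**Figure D1:**
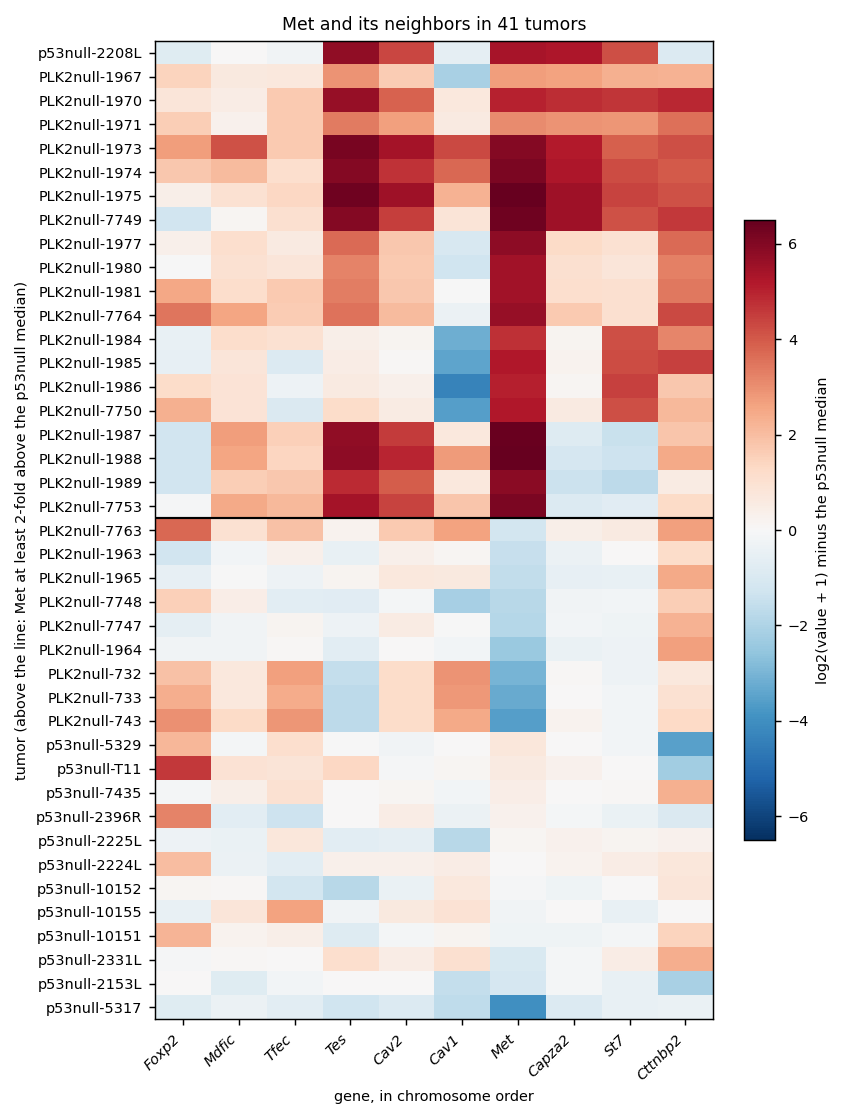
Heat map of 41 tumors (rows) and the 10 genes in chromosome order (columns), colored by log2(value + 1) minus the median of the 13 p53null tumors (red higher, blue lower). Above the black line are the 20 tumors with Met raised, in which blocks of tumors share the same neighbors, for example Tes and Cav2 without Capza2 and St7 in PLK2null-1987, PLK2null-1988, PLK2null-1989 and PLK2null-7753.

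How often a neighbor was raised with Met did not fall off evenly with distance. Among the 20 tumors Tes was raised in 17, Cav2 in 16, Cttnbp2 in 18, St7 in 14, Capza2 in 12, Mdfic in 12, Tfec in 12 and Cav1 in 5. Cttnbp2 was also raised in 11 of the 21 tumors without Met raised, most of them PLK2null, so its count is not particular to tumors with Met raised. Leaving out Foxp2, 106 of the 160 pairs of a neighbor and a tumor were raised (66.2%), and over all 17208 genes tested the percentage raised in the same 20 tumors was 17.1%. Since the genes were chosen on these values, nothing is read from that difference. In 17 of the 20 tumors at least 4 other listed genes were raised, or 16 when Foxp2 is left out. Foxp2 is left out because its median in the p53null tumors, 1.41, was within the range of the detection limit, and its highest value in any tumor was only 58.0 (p53null-T11).

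Outside the 20 tumors the immediate neighbors on the upper side stayed in a narrow range. Capza2 and St7 were raised in 0 of 21 of these tumors, with Capza2 between 2618 and 6320 and St7 between 339 and 714. Tes was raised in 2 of 21 (p53null-T11 at 8282 and p53null-2331L at 6890). The genes that were raised without Met were Cttnbp2 in 11, Tfec in 6, Cav1 in 5, Cav2 in 4 and Mdfic in 2 of the 21 tumors.

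The raised genes extended to both sides of Met in some tumors and ended on one side or the other in others. In 10 tumors Tes, Cav2, Met, Capza2 and St7 were all raised. In 4 tumors Tes, Cav2 and Met were raised but Capza2 and St7 were not, in 4 others Met and St7 were raised but Cav2 and Capza2 were not, and in 2 tumors (PLK2null-1977 and PLK2null-1980) the genes were raised from Tes to Capza2 and St7 missed the threshold, at 0.99 and 0.80.

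The only p53null tumor among the 20 was p53null-2208L, a luminal-like line in the study. Met was at 93104 in this tumor, while the other 12 p53null tumors lay between 144 and 3849. Tes was at 179017 (5.77 above the p53null median on the log2 scale), Capza2 at 189152 (5.26), Cav2 at 50377 (4.33) and St7 at 8830 (4.19). Cav1, which lies between Cav2 and Met, was at 3147, a log2 difference of -0.59. Mdfic at 820, Tfec at 22.2 and Cttnbp2 at 141 were likewise not raised. Cttnbp2 lies between Cftr and Lsm8, the gene of a U6 snRNP subunit, and both were raised in p53null-2208L, by 8.07 and 5.17.

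In PLK2null-1967, PLK2null-1970 and PLK2null-1971, Met was at 14842, 72377 and 18874. Tes was at 24551, 167038 and 34021 in the same order, and Capza2 at 30122, 139548 and 36947. PLK2null-1970 thus had the highest value of the 3 for Met, Tes and Capza2, and it also had the highest St7 (12269) and Cttnbp2 (7948) of all 41 tumors. St7 was at 2407 in PLK2null-1967 and 3519 in PLK2null-1971. Cav1 was raised in none of the 3, with values of 1113, 7582 and 7209.

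Met, Tes and Capza2 were all high in PLK2null-1973, PLK2null-1974, PLK2null-1975 (luminal-like in the study) and PLK2null-7749. Met was at 144361, 159194, 201397 and 184472. Tes was at 232444, 205772, 260707 and 204530, and Capza2 at 178079, 188603, 224265 and 224288. All 4 values of Tes and of Capza2 lay above those of every tumor without Met raised, which for Met follows from the definition. Cav1 differed among the 4, at 91171, 63396, 22520 and 8343, the last of them below the 2-fold threshold (0.82). Mdfic, the inhibitor of transcription factors, was at 14231 in PLK2null-1973, the highest value of the 41 tumors, and at 881 in PLK2null-7749, which is close to the p53null median of 820.

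In PLK2null-1977, PLK2null-1980, PLK2null-1981 and PLK2null-7764 Met stood out from its neighbors. Met was at 128895, 99771, 100053 and 116419, that is 5.46 to 5.83 above the p53null median on the log2 scale. Tes was 3.23 to 3.70 above it, Cav2 1.72 to 2.08, Capza2 1.07 to 1.70 and St7 0.80 to 1.06, whereas the more distant Cttnbp2 was 3.27 to 4.29 above it. Cav1 was at 1920 to 4706 and not above its p53null median of 4725 in any of the 4.

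The stretch of raised genes ended on the lower side between Cav1 and Met in PLK2null-1984, PLK2null-1985, PLK2null-1986 and PLK2null-7750. Met was at 60280, 83149, 76088 and 83392. Tes (4242 to 7402) and Cav2 (2681 to 3673) were between 0.10 and 1.18 above their p53null medians, with 1 of these 8 values past the threshold (Tes in PLK2null-7750). Further down, Mdfic was past it in PLK2null-1984 only (1806, or 1.14). Cav1 was at 530, 438, 231 and 393, the 4 lowest values of the 41 tumors and 8.89- to 20.4-fold below the p53null median. On the upper side Capza2, the gene next to Met, was at 5293 to 7446 and not raised, but St7 was at 8674 to 10610 and raised by 4.17 to 4.46. Capza2 thus missed the threshold between 2 raised genes, and its value in PLK2null-7750 (7446) was above the highest of the tumors without Met raised (6320).

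In PLK2null-1987, PLK2null-1988, PLK2null-1989 and PLK2null-7753 the stretch of raised genes ended on the upper side between Met and Capza2. Met was at 195175, 203935, 134498 and 158167. Tes was at 180915, 182140, 92971 and 139906, and Cav2 at 57724, 76472, 38130 and 51919. Mdfic was raised in all 4 tumors, at 2520 to 5349. Capza2 was at 2789, 2352, 1888 and 2679, with log2 differences from the p53null median of -0.82 to -1.38, and St7 was at 147 to 294, with log2 differences of -0.71 to -1.70. The lowest Capza2 and St7 values of the 41 tumors were both in PLK2null-1989. Further up, Cttnbp2 was past the threshold in 3 of the 4, at 938, 1459 and 619 in PLK2null-1987, PLK2null-1988 and PLK2null-7753 (1.82, 2.46 and 1.22), and was at 384 (0.53) in PLK2null-1989. The 3 values past the threshold lay within the range of the PLK2null tumors without Met raised, 434 (PLK2null-732) to 1692 (PLK2null-1964). They therefore do not show that the raised genes resume beyond Met. The phosphatase gene Ptprz1, 5.41 Mb from the start of Met, was raised in all 4, at 694 to 1159 against a p53null median of 144. Its highest value in a tumor without Met raised was 1456. Cav1 was raised in PLK2null-1988 (32613) and PLK2null-7753 (16384) and at 7520 and 7512 in the others.

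**Figure D2:**
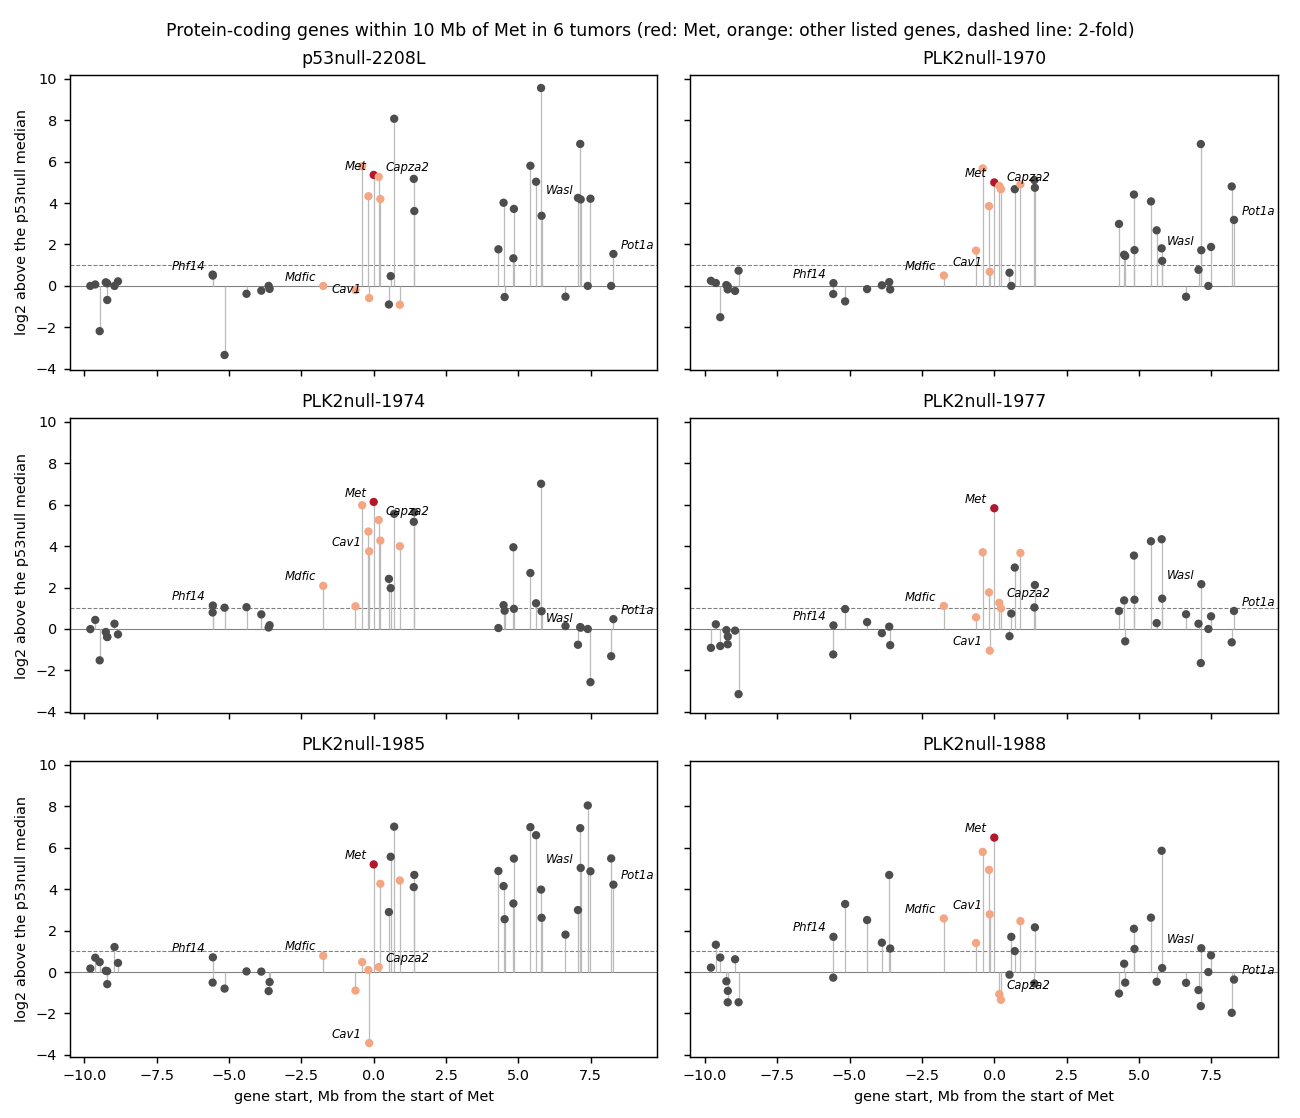
Log2 difference from the p53null median (vertical axis) of protein-coding genes with a mean of at least 10, by the distance of their start from the start of Met in Mb (horizontal axis), in 6 tumors. In PLK2null-1985 the run of raised genes begins at Met (5.19) and goes on to Pot1a (4.22). In PLK2null-1988 Capza2, the gene next to Met on the upper side, is at -1.07. Further up, Cttnbp2 (2.46) and Ptprz1 (2.62) are past the threshold there, at levels that some tumors without Met raised also reach.

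The extent of the raised genes around Met was then measured as a run of neighboring genes, going outward from Met on each side while genes were raised and passing over 1 gene that was not if the next one was. Over all annotated genes with a mean of at least 10, the run held 6 to 38 genes with a median of 14. The gene just beyond its upper end was most often Wnt2 (8 of 20 tumors), which encodes a secreted ligand, lies at chr6:17988940-18030585 on the minus strand and was at a median of only 13.2 in the p53null tumors. The gene just beyond its lower end was most often the noncoding 1110019D14Rik (7 of 20), at chr6:13871526-14044385 on the plus strand. Because predicted and antisense genes interrupted or lengthened the run, it was also measured over protein-coding genes alone, a choice made after the values were seen. The run then held 6 to 26 genes with a median of 12, over 0.878 to 10.6 Mb.

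The ends over protein-coding genes were identical in some tumors. In PLK2null-1984, PLK2null-1985, PLK2null-1986 and PLK2null-7750 the run began at Met and reached Pot1a, a telomere-binding protein gene, in all 4, with 25 genes above Met over 8.35 Mb, and Zfp800 as the next gene. In these tumors Pot1a was raised by 3.98 to 4.22 and Zfp800 was between -0.03 and -0.27. In PLK2null-1987, PLK2null-1988 and PLK2null-7753 the run went from Phf14, at -5.56 Mb relative to the start of Met, to Met itself, and in PLK2null-1989 it began 1 gene later, at Thsd7a, where Phf14 missed the threshold at 0.97. In p53null-2208L and PLK2null-1967 the run went from Tes to St7, over 0.878 Mb. The longest run, 10.6 Mb from Umad1 to Ankrd7, was in PLK2null-1973. In the 6 tumors whose run ended just before Wnt2, genes beyond it were raised again. Lsm8, 1.38 Mb from the start of Met, was raised in all 6, from 1.74 above its p53null median in PLK2null-7764 to 5.56 in PLK2null-1975, so the end of a run was not the end of the raised genes there.

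**Figure D3:**
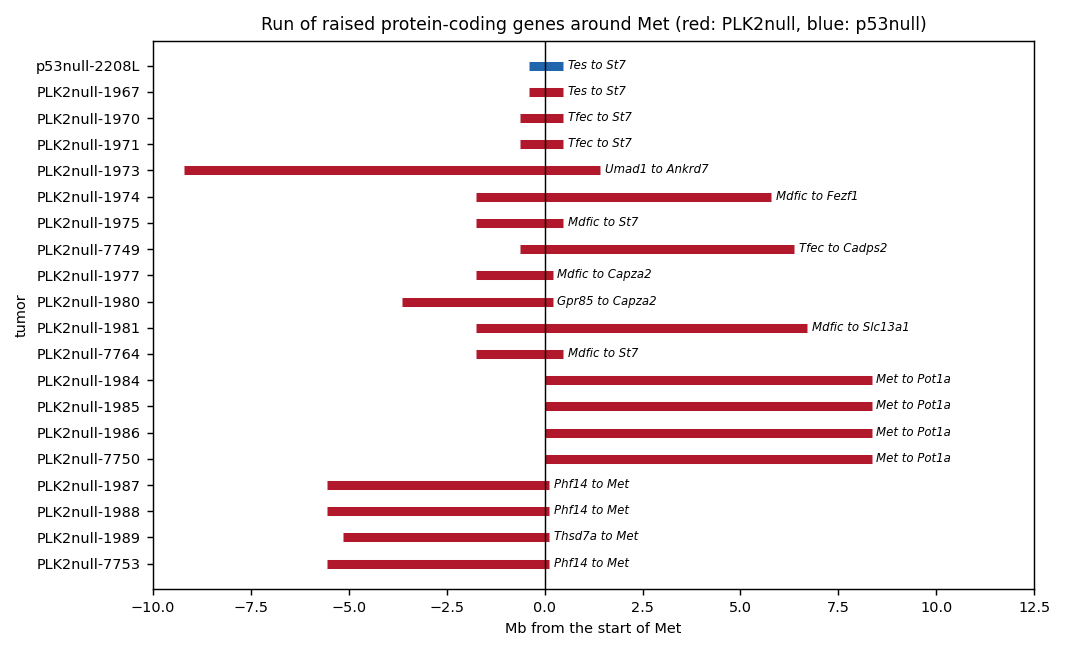
Extent of the run of raised protein-coding genes around Met in each of the 20 tumors with Met raised, in Mb from the start of Met (horizontal axis), with its first and last gene. The runs lie on the upper side only in 4 tumors (Met to Pot1a, 8.35 Mb) and end at Met on the lower side in 4 others (from Phf14 or Thsd7a).

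Cav1 was raised with Met in the fewest tumors of the neighbors other than Foxp2, although within the 20 tumors its level ranked with that of Met (Spearman 0.72, against 0.78 for Tes, -0.01 for Capza2 and -0.35 for St7). Among the 20 tumors it was raised in 5 and at least 2-fold below the p53null median in 7, and in 11 of the 16 tumors with Tes, Cav2 and Met all raised it was not raised. Its 5 raised tumors among the other 21 included PLK2null-732 (36212), PLK2null-733 (32826), PLK2null-743 (25691) and PLK2null-7763 (29088), the 4 tumors with few epithelial reads, while p53null-2331L at 9572 was just past the threshold (1.02). Cav2 was raised in the same 4 tumors, at 5638 to 8273, and in none of the others without Met raised. All 6 endothelial markers moved with Cav1 in these 4, whereas of the 5 adipocyte markers Adipoq, Plin1 and Cidec stayed within the range of the other tumors. Over the 21 tumors without Met raised the rank correlation (Spearman) of Cav1 with the summed endothelial markers was 0.83, and over the 20 with Met raised it was -0.14, where that sum was only 2612 to 7743. The part of other cell types in the Cav1 values was not tested, and in bulk tissue fewer cells of a type and less RNA per cell cannot be told apart.

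**Figure D4:**
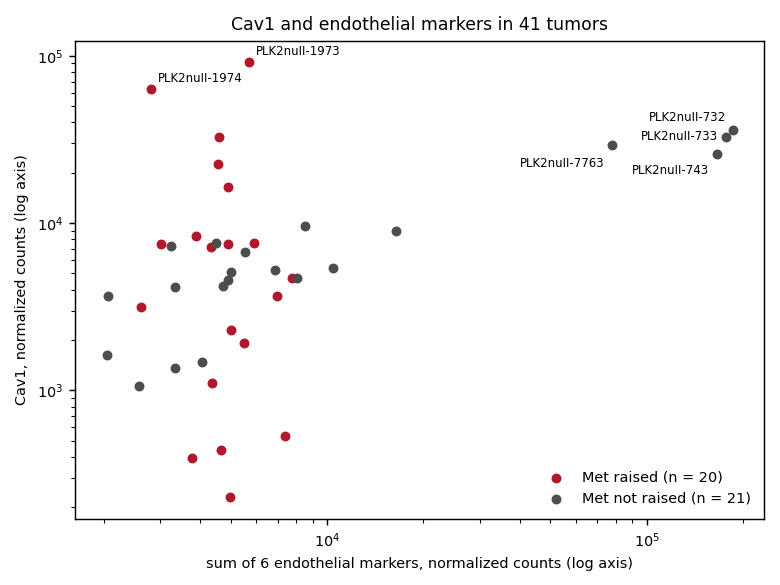
Cav1 (vertical axis) against the sum of 6 endothelial markers (horizontal axis), both in normalized counts on log axes, for 41 tumors. The 4 tumors at the right (PLK2null-732, PLK2null-733, PLK2null-743 and PLK2null-7763) have Cav1 at 25691 to 36212 without Met raised, while PLK2null-1973 and PLK2null-1974 reach 91171 and 63396 with low endothelial sums.

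Tfec, the macrophage transcription factor gene, was low throughout (9.70 to 193). Its rank correlation with 5 summed macrophage markers was 0.87 over the 21 tumors without Met raised and -0.27 over the 20 with it, and the part of macrophages in its values was not tested. The 4 highest Tfec values were in PLK2null-743 (193), PLK2null-732 (168), p53null-10155 (160) and PLK2null-733 (142), all without Met raised.

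Levels of different genes can be compared only per length. Per kb of annotated exon sequence the p53null medians were highest for Cav1 (1372), followed by Capza2 (837), Cav2 (752), Tes (479) and Met (296), and lower for Mdfic (110), St7 (53.2), Cttnbp2 (30.002), Tfec (4.60) and Foxp2 (0.0860). The p53null ranges of neighbors in this order overlapped throughout. In the 20 tumors with Met raised the order of the per-kb medians was Met (14095), Tes (9920), Cav2 (7792), Capza2 (1890), Cav1 (1730), St7 (591), Cttnbp2 (307), Mdfic (231), Tfec (11.1) and Foxp2 (0.129). There the ranges of neighbors in the order overlapped from Met to Mdfic, but not between Mdfic and Tfec nor between Tfec and Foxp2.

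Several of the tumors with like patterns were also alike outside the locus. Correlations between tumors were computed over the 2000 most variable genes, leaving out chromosome 6 genes within 20 Mb of Met, as a description. For each of PLK2null-1984, PLK2null-1985, PLK2null-1986 and PLK2null-7750 the 3 closest of the other 40 tumors were the other 3, with r of 0.76 to 0.91 among them and at most 0.26 to any other tumor. The same held for PLK2null-1987, PLK2null-1988, PLK2null-1989 and PLK2null-7753 (0.70 to 0.84, at most 0.60 to others), and for 3 of 4 tumors in PLK2null-1977, PLK2null-1980, PLK2null-1981 and PLK2null-7764 (0.51 to 0.69, at most 0.60 to others). It held for 2 of 4 in PLK2null-1973, PLK2null-1974, PLK2null-1975 and PLK2null-7749 (0.38 to 0.72, at most 0.49 to others). PLK2null-1967, PLK2null-1970 and PLK2null-1971 were less alike (0.18 to 0.40) than PLK2null-1971 was to PLK2null-7747 (0.62), a tumor without Met raised. Tumors that resemble one another to this degree may not be independent, which the labels do not settle. The counts of tumors given above, those of run ends included, take each tumor as separate. The p-values given next also treat all tumors as independent and measure only the spread between them.

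The genotypes were compared with limma on log2(value + 1) over 17208 genes with a mean of at least 10, with Benjamini-Hochberg adjusted p-values. Of the 10 genes 9 were tested, and 6 were higher in the PLK2null tumors and 0 lower, where the percentage of all tested genes called higher was 24.3% and lower 15.3% (39.5% in either direction). The median log2 difference was 1.21 over the 9 genes and 0.10 over all genes tested, which became -0.07 under rescaling by a trimmed mean of M values (TMM), where the split of all calls went from 4175 higher and 2627 lower to 3067 and 3870. Without the 4 tumors with few epithelial reads 5 of the listed genes were higher (Mdfic, Tes, Cav2, Met and Cttnbp2) and 0 lower. Of all 17041 genes tested there, 4247 were higher (24.9%) and 2890 lower. Because the genes were chosen on the same tumors, most of them PLK2null, neither their count nor their p-values are independent evidence of a genotype effect. The titles of all p53null libraries carry a second numbering that those of the PLK2null libraries lack, so a library series and the genotype cannot be told apart.

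Met ranged from 186 to 203935 in the PLK2null tumors, with a median of 79619, and from 144 to 93104 in the p53null tumors, with a median of 2272. The ranges of the genotypes overlapped. The log2 difference was 2.89 (SE 1.09, limma adjusted p = 0.0326). The study describes high Met in its luminal class of Plk2-/-; p53-/- tumors, similar to the luminal class of p53-/- tumors. The fit had no term for expression class, so the part of the class mix in this difference was not tested. Of the 41 fits that left out 1 tumor the call was lost in 1, that without p53null-5317, the tumor with the lowest Met (2.55, adjusted p = 0.0677). Without the 4 tumors with few epithelial reads the difference was 3.84 (limma adjusted p = 0.00119). All 4 were PLK2null tumors with Met at 186 to 1008, so leaving them out raised the PLK2null mean. With only the 7 PLK2null tumors taken as those of the study's latency plot the difference was 2.57 (limma adjusted p = 0.178). These were PLK2null-7747, PLK2null-7748, PLK2null-7749, PLK2null-7750, PLK2null-7753, PLK2null-7763 and PLK2null-7764, which the labels do not set apart.

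Cttnbp2, the cortactin-binding protein gene, had the smallest adjusted p of the 9. It ranged from 384 to 7948 (median 1562) in the PLK2null tumors and from 22.4 to 1387 (median 265) in the p53null tumors. Its log2 difference was 2.88 (SE 0.48, limma adjusted p = 4.87e-06), and the call was kept in all 41 fits that left out 1 tumor. It was raised in 18 PLK2null tumors with Met raised and in 8 without, and in 3 p53null tumors, all without Met raised.

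Tes was at 1009 to 260707 (median 27684) in the PLK2null tumors and 951 to 179017 (median 3276) in the p53null tumors, with a log2 difference of 2.14 (SE 0.84, limma adjusted p = 0.0392). Cav2 was at 2264 to 114730 (median 8267) and 1345 to 50377 (median 2507), with a difference of 1.88 (SE 0.56, limma adjusted p = 0.00662). Mdfic was at 688 to 14231 (median 1593) and 481 to 1561 (median 820), with a difference of 1.13 (SE 0.30, limma adjusted p = 0.00235). The groups overlapped for each of these genes. The calls of Cav2 and Mdfic were kept in all 41 fits that left out 1 tumor, but that of Tes was lost in 18 of them, with limma adjusted p-values of up to 0.0708. Each such fit kept the tumors most like the one left out. With only the 7 PLK2null tumors of the latency plot Mdfic was called, but Cav2 and Tes were not.

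Tfec, with a difference of 0.85 (SE 0.35, limma adjusted p = 0.0494), was at the threshold, and its call was lost in 27 of the 41 fits that left out 1 tumor and without the 4 tumors with few epithelial reads (0.61, adjusted p = 0.137). Its summed macrophage markers were 2188 to 13226 in the PLK2null and 1805 to 11490 in the p53null tumors. St7 (1.21, adjusted p = 0.130), Capza2 (0.85, adjusted p = 0.317) and Cav1 (0.49, adjusted p = 0.581) did not pass the limma test. St7 passed it only when p53null-2208L was left out (1.54, adjusted p = 0.0473). For Capza2 the medians of the genotypes were 5812 and 4928, with the 13 values above those of all tumors without Met raised in 12 PLK2null tumors and p53null-2208L.

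**Figure D5:**
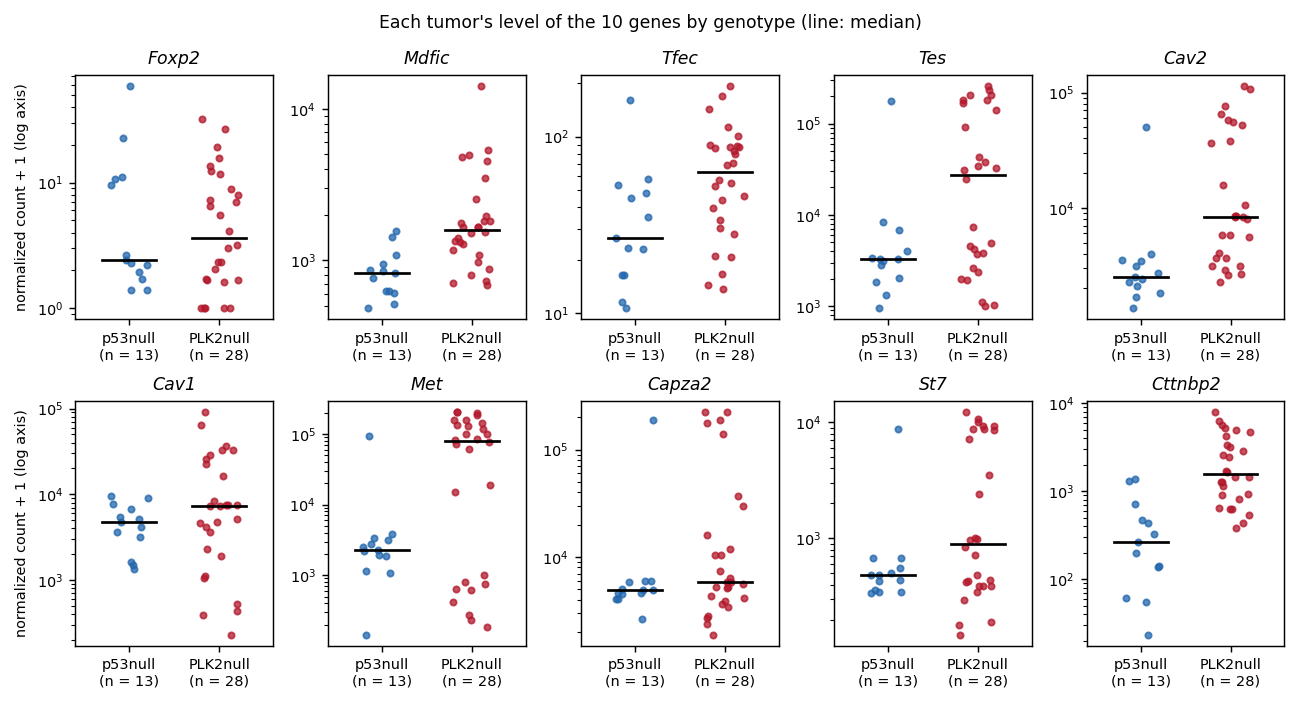
Normalized count + 1 (log axis) of each of the 10 genes in the 13 p53null (blue) and 28 PLK2null (red) tumors, with each group's median as a line. Met, Tes, Cav2, Capza2 and St7 each have their highest p53null value in p53null-2208L, while Cttnbp2 is at 384 or more in every PLK2null tumor.

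Of 58 other genes of the HGF and MET pathway 56 were tested, and 13 were higher and 5 lower in the PLK2null tumors, against 24.3% higher and 15.3% lower over all genes. Their median log2 difference of 0.11 was close to that of all genes (0.10). The ligand gene Hgf was at a median of 50.4 in the PLK2null and 28.2 in the p53null tumors and did not pass the test (0.51, SE 0.34, limma adjusted p = 0.244). The 3 largest differences were in the kinase gene Braf (1.17, SE 0.19, limma adjusted p = 4.44e-06) and in the ubiquitin ligase genes Cblb (0.91, SE 0.23, adjusted p = 0.00148) and Cbl (0.88, SE 0.15, adjusted p = 7.59e-06), whose products mark activated receptors for degradation. Of the pathway genes called, the most negative was Mst1 (-2.43, SE 0.97, limma adjusted p = 0.0433), which encodes macrophage stimulating protein, the ligand of the related receptor RON. Its PLK2null median of 2.23 was within the range of the detection limit. Its values overlapped, at 0 to 454 in the PLK2null and 0.779 to 884 in the p53null tumors. The next 2 called were the MAP kinase kinase gene Map2k2 (-0.83, SE 0.15, limma adjusted p = 1.86e-05) and Hras (-0.83, SE 0.16, limma adjusted p = 6.92e-05). Spint2 (-1.28), Sh3gl2 (-0.97) and Spint1 (-0.87) were more negative than Map2k2 but did not pass the test. Without the 4 tumors with few epithelial reads 13 pathway genes were higher and 4 lower. With only the 7 PLK2null tumors of the latency plot 5 pathway genes were higher and 1 was lower.

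Over all 41 tumors Tes was the gene most like Met of 17207 ranked, with a rank correlation (Spearman) of 0.90. The 8 genes that ranked next lie outside 10 Mb of Met, and 1 of them, Clec5a, is also on chromosome 6 (start at 40574894). They were Rin2 (0.89), an effector of RAS and RAB5, the lysosomal protease gene Ctsc (0.88), Gabbr2 (0.86), Clec5a (0.86), Plppr3 (0.86), the oncostatin M receptor gene Osmr (0.86), the deubiquitinase gene Stambpl1 (0.86) and Sh3bp2 (0.85). Within the 13 p53null tumors, of which 1 had Met raised, the correlation was 0.87 for Rin2 and 0.47 for Tes, and within the 20 tumors with Met raised it was 0.54 for Rin2 and 0.78 for Tes. All points share the normalization of their library and, where tumors are related, their lineage. The other neighbors were at 0.67 for Cav2, 0.61 for Mdfic, 0.46 for Cttnbp2, 0.39 for Capza2, 0.38 for St7, 0.19 for Tfec and 0.07 for Cav1. Within the 20 tumors, Tes and Cav2 went most closely together (0.98), followed by Cav2 and Cav1 (0.93), so that Cav1 ranked with its neighbor although it was raised in few tumors.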

How the data were processed

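RNA was extracted from untreated mammary tumors and sequenced as paired-end mRNA libraries. The submitters' processing notes name STAR 2.7.6a, Salmon 1.4.0, Picard 2.22.4, SAMtools and the mouse build mm10; the annotation is not given in the sources used here. The deposited signal values, as the authors made them, are Salmon gene counts scaled so that the upper quartile of each tumor is 1000. They were read as linear values. The commonest nonzero value of each tumor was taken as that of 1 fragment, which gives an estimate of its depth, and the detection limit covers counting error only. All 41 columns were matched to tumors by title. Positions came from GENCODE vM21, whose symbols matched 95.0% of the matrix. Genes with a mean of at least 10 were tested with limma 3.58.1 (R 4.3.3) on log2(value + 1), without covariates, after a check on simulated data; fold changes of low genes are understated by the pseudocount of 1. Descriptions used Python 3.11.15 with pandas 2.3.3 and scipy 1.17.1. The members, gene lists and rules (the 10 genes, the gene most often beyond each end of the run, the 8 genes most like Met, the 3 largest and 3 smallest differences among the pathway genes called) were chosen with earlier results of these data known. Genes named beyond these rules were chosen after their values were seen. Alternatives were other pseudocounts, filters, scalings, references, thresholds and tumor subsets. No sequence-level or copy number data were analysed here.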

Additional observations from a re-analysis of the deposited data

How the results depend on the processing

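No paired analysis was possible because the genotypes share no tumor numbers. No result reversed. Leaving out 1 tumor at a time gave 3 to 6 called members (6 with all tumors, 3 only without p53null-5317) and a Met difference of 2.55 to 3.33. With only the 7 PLK2null tumors of the latency plot 2 members (Mdfic and Cttnbp2) and 6 pathway genes were called instead of 6 and 18, and the Met difference was 2.57 (limma adjusted p = 0.178). In the other 7 alternatives 4 to 5 members and 14 to 19 pathway genes were called and Met passed. Met was raised in 20 tumors in every alternative but 1 (27 with the lower quartile of all tumors as reference). With a threshold of 2 on the log2 scale, Met and at least 4 other members were raised in 11 tumors instead of 17 and the median run was 9 genes instead of 14. The median run was 6.5 genes with a pseudocount of 10, 4 with no gene passed over and 22 with a filter at a mean of 100, so its length depends on the rule. The comparison limited to tumors with more epithelial than endothelial reads and the run over protein-coding genes were added after seeing the data. Depth limits Foxp2 and other genes near the 3-fragment limit, for which a raised call may be a few fragments.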

Other observations

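Further from Met, beyond Cttnbp2, other genes of known function were high in the same tumors. Ptprz1, a receptor-type protein tyrosine phosphatase gene at chr6:22875502-23052916, was raised in all 20 tumors with Met raised, by 1.95 to 6.99 on the log2 scale, although it lies 5.41 Mb from the start of Met and although the run of raised genes ended before it in most of them. Values of Ptprz1 reached 1456 in the tumors without Met raised, so that the groups overlapped. Cftr, the chloride channel gene at chr6:18170687-18322768, was raised in 18 of the 20 tumors, by up to 8.07 in p53null-2208L, from a p53null median of only 39.3. Fam3c, a secreted protein gene at chr6:22306520-22356243, was raised in 14 of the 20, by 5.18 to 5.55 in the 4 tumors with a run from Met to Pot1a, and Wasl, which encodes an activator of actin nucleation, was raised by 4.84 to 5.18 in the same 4.

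On the lower side the neuronal receptor gene Gpr85, at -3.63 Mb relative to the start of Met, was raised by 2.56 to 4.68 in PLK2null-1987, PLK2null-1988, PLK2null-1989 and PLK2null-7753, against a p53null median of 24.9. Mitochondrial Ndufa4, which directly neighbors Phf14 on its far side, was raised in 1 of the 20 tumors, PLK2null-1973 (1.86).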
